A study of Mus musculus with 8 samples.

Results

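The enzymes that build triglycerides from glycerol-3-phosphate were examined at the mRNA level in livers of 4 mice fed a normal diet (ND mice 1, 3, 6 and 7) and 4 mice fed a high-fructose diet (HFrD mice 1, 2, 5 and 7). The 10 genes, Gpam, Agpat1, Agpat2, Agpat3, Lpin1, Lpin2, Lpin3, Dgat1, Dgat2 and Mogat1, were taken by symbol from the table of 22564 protein-coding genes, in which each had 1 entry. All animals were male C57BL/6J mice, an inbred strain with no engineered allele, bought at 10 to 11 weeks of age and kept on their diet for 2 weeks. Each library was made from the liver RNA of 1 mouse after removal of ribosomal RNA. Values are the authors' FPKM, which are fragments normalised to transcript length and to the library's fragments, so that levels can be set side by side between genes. The question was whether the diets differed in the mRNA of these enzymes, and at which step of the pathway.

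Triglycerides are made in the liver mainly by the glycerol phosphate pathway. Glycerol-3-phosphate acyltransferases attach an acyl chain to glycerol-3-phosphate, and Gpam encodes the form that sits in the outer mitochondrial membrane. Acylglycerol-phosphate acyltransferases of the endoplasmic reticulum (Agpat1, Agpat2, Agpat3) add another chain and give phosphatidate. Lipins (Lpin1, Lpin2, Lpin3) are soluble phosphatidate phosphatases that give diacylglycerol, and Lpin1 and its relatives also act in the nucleus as partners of transcription factors. Diacylglycerol acyltransferases (Dgat1, Dgat2), which are unrelated in sequence, add the last chain. Mogat1 encodes a monoacylglycerol acyltransferase, which reaches diacylglycerol by another route and belongs to the family of Dgat2.

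Promoter sequence is shown for the 3 genes whose mRNA differed between the diets and for Lpin2, the most abundant lipin, so that the stretches next to the start sites of members with and without a difference can be compared. The sequences are those of RefSeq on GRCm38.p6, each of 300 bases, from 250 before to 50 after an annotated start, on the strand of the gene. Capitals mark a CCAAT box (CCAAT, or ATTGG on the other strand) or an E-box (CACGTG).
Gpam, chr19:55127189-55127488, minus strand: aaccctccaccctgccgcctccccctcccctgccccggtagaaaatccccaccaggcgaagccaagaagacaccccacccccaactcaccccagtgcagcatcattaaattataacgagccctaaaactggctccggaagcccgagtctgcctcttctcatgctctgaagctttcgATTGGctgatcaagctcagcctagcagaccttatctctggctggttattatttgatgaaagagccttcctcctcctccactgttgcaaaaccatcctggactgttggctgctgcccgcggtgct
Agpat2, chr2:26604368-26604667, minus strand: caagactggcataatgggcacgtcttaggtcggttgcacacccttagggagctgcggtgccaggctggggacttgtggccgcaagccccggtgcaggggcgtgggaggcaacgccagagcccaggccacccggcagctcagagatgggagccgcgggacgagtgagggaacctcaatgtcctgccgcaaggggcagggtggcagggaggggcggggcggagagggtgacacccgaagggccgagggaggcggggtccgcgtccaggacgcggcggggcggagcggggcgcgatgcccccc
Lpin1, chr12:16610917-16611216, minus strand: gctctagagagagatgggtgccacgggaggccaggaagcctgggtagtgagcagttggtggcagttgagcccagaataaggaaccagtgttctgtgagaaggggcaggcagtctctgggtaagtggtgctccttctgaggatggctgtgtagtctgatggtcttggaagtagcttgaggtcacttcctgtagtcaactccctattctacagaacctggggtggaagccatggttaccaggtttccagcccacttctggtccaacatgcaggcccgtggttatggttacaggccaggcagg
Lpin2, chr17:71183282-71183581, plus strand: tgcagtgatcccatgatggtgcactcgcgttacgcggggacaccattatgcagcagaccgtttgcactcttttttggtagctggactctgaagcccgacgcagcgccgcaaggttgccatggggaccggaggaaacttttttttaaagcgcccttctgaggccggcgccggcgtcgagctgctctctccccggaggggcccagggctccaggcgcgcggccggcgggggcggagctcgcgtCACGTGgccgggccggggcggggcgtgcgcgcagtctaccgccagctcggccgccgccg
The motifs searched on both strands were the E-box CACGTG, the sterol element TCACNCCAC and the CCAAT box, and no match of one overlapped a match of another. Of all 32851 promoters of this length, 7.15% held the E-box, 1.24% the sterol element and 37.4% the CCAAT box. The table held 13 promoters of 8 of the 10 genes. A CCAAT box began 74 bases before the start of Gpam shown above, and 35 bases before a start of Agpat1. In another promoter of Lpin2 CCAAT boxes began 233, 165 and 57 bases before the start, and in Mogat1 1 lay 24 bases after it. An E-box began 9 bases before the start of Lpin2 shown above, and another lay 22 bases after a start of Lpin3. The windows of Agpat2, Agpat3 and Lpin1 held none of these letters, and neither did another window each of Gpam, Agpat1, Lpin2 and Lpin3. None of the 13 held the sterol element. The start sites shown for Gpam and Lpin1 lie 14.4 and 21.2 kb outside the loci that the authors' table gives for these genes, so the table's gene models end before them. The other start of Gpam, at 55099477 and without a match, lies inside its locus. A match describes letters only, and no binding was analysed here.

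The HFrD livers carried more mRNA of the enzyme of the first step, Gpam, and of Agpat2 and Lpin1 of the following steps, whereas the mRNA of the other 7 genes did not pass the test. Gpam stood 4.72-fold higher as a ratio of mean FPKM, Lpin1 2.76-fold and Agpat2 1.49-fold. Of the 10 genes, 3 thus passed an adjusted p of 0.05 with a higher level in HFrD livers, and 0 with a lower one. With 1 mouse left out at a time, the call of Gpam held in all 8 fits, that of Agpat2 in 3 and that of Lpin1 in 2. Differences were tested with limma on log2(FPKM + 1), a scale on which changes of low FPKM appear smaller than they are, over the 11476 genes whose mean FPKM reached 0.5, and p values were adjusted over all of them by Benjamini and Hochberg. All 10 genes passed this filter. Of the 11476 genes, 5.44% (624) were called higher and 3.69% (423) lower in HFrD livers, a balance that turned to 552 and 614 when the libraries were set to equal medians. Every HFrD value lay above every ND value for 3 of the 10 genes (Gpam, Agpat2 and Agpat3), as for 9.60% of all tested genes, and the reverse was seen for 0 of the 10 and for 7.01% of all. The median log2 fold change was 0.30 over the 10 genes and 0.014 over all tested genes, and it was above 0 for 9 of the 10 and for 52.4% of all. At an unadjusted p under 0.05 in limma, 5 of the 10 passed, all with higher HFrD levels. The share of all tested genes that passed this level is not given. This count, and those at an unadjusted p for the lists below, are therefore not read as an excess. Gpam and Lpin1 are among the lipid genes that the study listed as changed on these same libraries, and that listing gives no independent evidence of their direction.

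**Figure D1:**
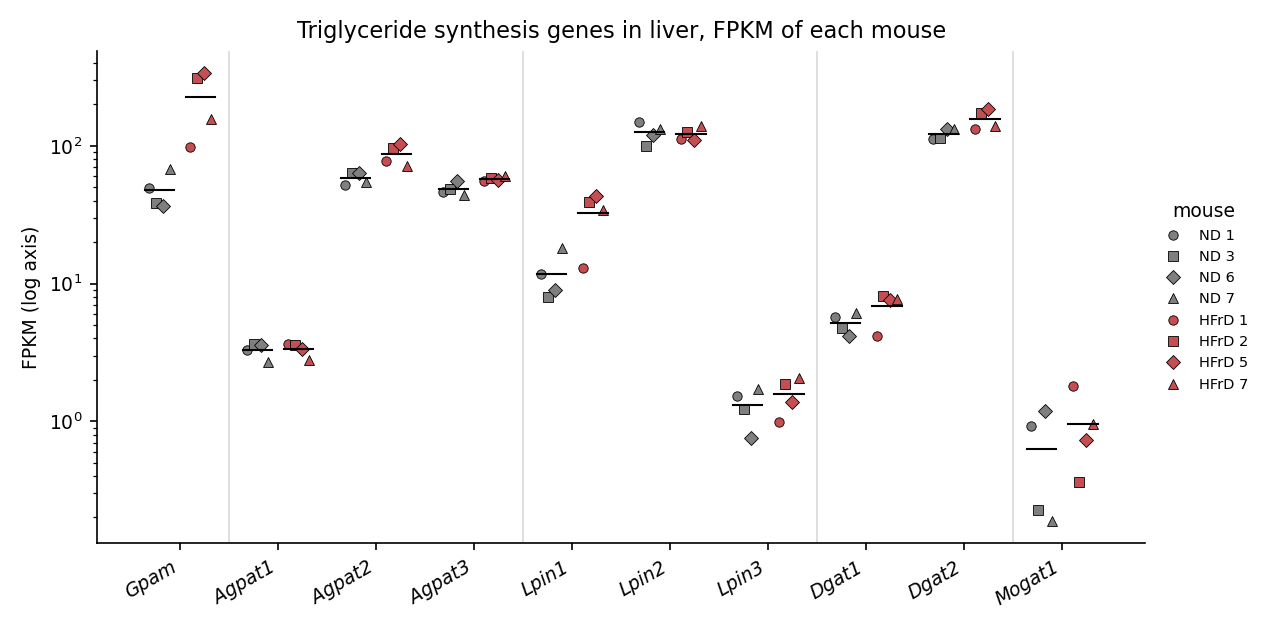
FPKM of each gene (log axis) in each of the 8 mice, with ND in grey, HFrD in red, 1 symbol per mouse and a bar at the mean of 4 mice. The 4 HFrD values of Gpam (97.7 to 337 FPKM) lie above the 4 ND values (36.8 to 67.4 FPKM), while those of Lpin2 are intermingled.

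Several measures of the libraries themselves moved with the diet. Depth, known only relative to ND mouse 1, ranged from 1.13 to 1.49 for HFrD mice and from 0.991 to 1.17 for ND mice. The major urinary protein (Mup) genes, which are abundant in male liver, held 6.73 to 9.78% of the summed FPKM of HFrD mice and 12.0 to 15.2% of that of ND mice, and mitochondrial genes 4.90 to 6.00% and 4.47 to 4.78%. Between 14053 and 14392 genes were above 0 in HFrD mice and between 13755 and 13973 in ND mice. Hepatocyte markers were high throughout, with a summed level of 43660 to 52130 FPKM in HFrD mice and 37270 to 46870 in ND mice, and 1 of the 8 (Ttr) was called higher. Of 8 adipocyte markers, 3 were tested and 0 were called in limma, with 1 at an unadjusted p under 0.05. Their summed level was 52.8 FPKM in HFrD mouse 2 and 5.0 to 19.0 FPKM in the other 7 mice, and Slc7a10 was listed at 0 in all 8. Adipoq was listed at 0 in all 4 ND mice and in HFrD mice 1 and 5, at 2.83 FPKM in HFrD mouse 2 and at 0.26 FPKM in HFrD mouse 7. Lep and Plin1, also at 0 in the ND mice, had 0.14 and 0.56 FPKM in HFrD mouse 2 and 0.45 and 0.056 FPKM in HFrD mouse 7. Retn had 2.78 FPKM in HFrD mouse 2 and 0.17 in HFrD mouse 1, but was at 0 in HFrD mouse 7. Cfd had 12.1 FPKM in HFrD mouse 2, 0.39 in HFrD mouse 7 and up to 0.74 in ND mice. Cidec and Fabp4 had 0.63 and 17.2 FPKM in HFrD mouse 7, with ND mice at up to 0.38 and 7.02. Of 8 Kupffer cell and macrophage markers, 6 were higher in HFrD livers, with sums of 120 to 190 against 65.9 to 102 FPKM. Endothelial markers were higher for 4 of 8, with sums of 95.4 to 110 against 72 to 83.7 FPKM. Stellate cell markers were called for 0 of 8 in limma, with 4 at an unadjusted p under 0.05 and sums of 124 to 134 against 88.0 to 120 FPKM, and those of cholangiocytes for 0 of the 3 tested, with 0. Of 5 enterocyte markers 2 were tested and 1 was higher, with sums of 648 to 898 against 71.0 to 132 FPKM. This was Apoa4, an apolipoprotein gene that liver also expresses (4.37 on the log2 scale, limma adjusted p = 2.92e-06), while Fabp2 had 83.3 ± 10.7 against 66.0 ± 19.0 FPKM (SD, n = 4 each) and Alpi was listed at 0 in every library. In whole liver, fewer cells of a type and less RNA per cell cannot be told apart, and the part of these cell types in the values below was not tested.

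Gpam, on chromosome 19 of mm10 from 55067268 to 55127238 on the minus strand, showed the widest difference between the diets among the 10 genes. Its level was 49.2, 38.1, 36.8 and 67.4 FPKM in ND mice 1, 3, 6 and 7. In HFrD mice 1, 2, 5 and 7 it was 97.7, 311, 337 and 157 FPKM. All HFrD mice lay above all ND mice, and HFrD mice 2 and 5 were far above HFrD mouse 1, the lowest. The means were 226 ± 117 FPKM for HFrD and 47.9 ± 14.1 FPKM for ND mice (SD, n = 4 each), which differed by 2.09 on the log2 scale (standard error 0.37, 95% interval 1.27 to 2.90, adjusted p = 0.00877 from limma). The exact permutation p was 0.0286, which is the smallest that 70 relabellings of the 8 mice can give. Ordered from the most raised to the most lowered by signed log2 fold change, Gpam stood at place 28 of the 11476 genes. The call held with any 1 of the 8 mice left out, at an adjusted p in limma of up to 0.0310 (without ND mouse 3), and the ratio of means was 3.94 to 5.61 in them. Without HFrD mouse 2 alone the log2 difference of Gpam was 1.88 (adjusted p = 0.0251). Without HFrD mice 2 and 7, the libraries with Adipoq above 0, it was 1.94 with the call lost (adjusted p = 0.0837), a fit with 2 HFrD mice that was chosen after seeing the data. The call was also lost with no filter on low FPKM (limma adjusted p = 0.0784).

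The level of Gpam relative to the later enzymes also differed between the diets. Among the 10 genes Gpam had the highest FPKM in HFrD mice 2, 5 and 7 and was at place 3 in HFrD mouse 1, behind Dgat2 and Lpin2. In ND livers it was at place 3 in mouse 7, at place 4 in mouse 1 and at place 5 in mice 3 and 6. The ratio of Gpam to Dgat2 FPKM was 0.74, 1.80, 1.81 and 1.13 in HFrD mice 1, 2, 5 and 7 and 0.28 to 0.51 in ND mice. The ratio of Gpam to Agpat2 was 2.49 ± 0.95 (SD, n = 4) against 0.84 ± 0.31 (SD, n = 4), and its lowest HFrD value of 1.27 was close to the highest ND value of 1.23. These ratios are a description without a test. The tested genes whose values followed Gpam most closely over the 8 mice, by the root mean square difference of log2(FPKM + 1) after each gene was centred on its own mean, were Acaca (0.22), Pgd (0.25) and Acss2 (0.30). Acaca encodes acetyl-CoA carboxylase of fatty acid synthesis, Pgd a dehydrogenase of the pentose phosphate pathway that makes NADPH, and Acss2 the cytosolic acetyl-CoA synthetase. For comparison, the SD of Gpam itself on this scale was 1.27 over the 8 mice.

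Of the acylglycerol-phosphate acyltransferases, Agpat2 rose while Agpat1 and Agpat3 did not pass the test. Agpat2, whose loss causes congenital lipodystrophy in humans, lies on chromosome 2 of mm10 from 26593057 to 26604417 on the minus strand. Its level was 51.9, 63.4, 63.4 and 54.9 FPKM in ND mice 1, 3, 6 and 7 and 77.2, 96.0, 104 and 70.8 FPKM in HFrD mice 1, 2, 5 and 7. The groups did not overlap, with HFrD mouse 7 nearest to the ND mice. The means were 87.0 ± 15.5 (SD, n = 4) and 58.4 ± 5.91 FPKM (SD, n = 4), which differed by 0.55 on the log2 scale (standard error 0.13, 95% interval 0.26 to 0.85, adjusted p = 0.0277 from limma; exact permutation p = 0.0286). This call held in 3 of the 8 fits without 1 mouse. Leaving out ND mouse 1, 3 or 7 gave an adjusted p in limma of 0.0807, 0.0527 or 0.0571, leaving out HFrD mouse 2 or 5 gave 0.0759 or 0.0686, and the log2 fold change in all 8 fits was 0.47 to 0.65. It was also lost with no filter (0.117) and without both HFrD mice 2 and 7 (0.101, log2 difference 0.61). Agpat2 overlaps Egfl7, an endothelial gene on the other strand, which had 17.8 to 22.2 FPKM in HFrD mice and 12.5 to 16.9 in ND mice (log2 difference 0.36, adjusted p = 0.0673 from limma). Whether the counting used strand is not given in the sources used here, so reads of this pair cannot be told apart.

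Agpat3, whose product also acylates lysophospholipids, had 55.9 to 60.5 FPKM in HFrD mice and 44.2 to 55.1 in ND mice. The HFrD values were above all ND values but close to them, a log2 difference of 0.25 (95% interval 0.06 to 0.44, adjusted p = 0.0965 from limma). Agpat1 was low, with 2.80 to 3.65 FPKM in HFrD mice and 2.70 to 3.63 in ND mice, and its log2 fold change was 0.02 (95% interval -0.25 to 0.29, adjusted p = 0.942 from limma). The sum of the 3 genes was 148 ± 14.8 FPKM on the HFrD against 110 ± 10.2 FPKM on the ND (SD, n = 4 each). Agpat2 made up 56.5, 60.6, 63.6 and 52.8% of that sum in HFrD mice 1, 2, 5 and 7 and 51.0 to 54.9% in ND mice. HFrD mouse 7 thus lay among the ND mice in this share while HFrD mice 1, 2 and 5 lay above them.

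Lpin1 rose in 3 of the 4 HFrD livers, and the other lipins did not pass the test. Lpin1, the gene mutated in the fatty liver dystrophy mouse, lies on chromosome 12 of mm10 from 16535669 to 16610966 on the minus strand. Its level was 11.8, 7.93, 8.99 and 18.2 FPKM in ND mice 1, 3, 6 and 7 and 12.9, 39.0, 43.6 and 34.0 FPKM in HFrD mice 1, 2, 5 and 7. HFrD mouse 1 lay below ND mouse 7, so the groups overlapped, and the other 3 HFrD mice lay above every ND mouse. The means were 32.4 ± 13.6 and 11.7 ± 4.61 FPKM (SD, n = 4 mice each), and the log2 fold change was 1.33 (standard error 0.36, 95% interval 0.53 to 2.13, adjusted p = 0.0468 from limma; exact permutation p = 0.0571). The call was close to the threshold and was lost in 6 of the 8 fits without 1 mouse. Leaving out ND mouse 1, 3 or 6 gave an adjusted p in limma of 0.0955, 0.118 or 0.108, and leaving out HFrD mouse 2, 5 or 7 gave 0.114, 0.117 or 0.109. Without HFrD mouse 1 it was 0.00257, with a log2 fold change of 1.71. The call of Lpin1 was also lost with no filter (0.213), without both HFrD mice 2 and 7 (0.312, log2 difference 1.03), when the libraries were set to equal medians (0.0577), after quantile normalization (0.0582), after rescaling without Mup and mitochondrial genes (0.0548) and without the variance trend (0.0554).

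Lpin2 was the main lipin mRNA of the liver on both diets. Its level was 149, 99.7, 120 and 132 FPKM in ND mice 1, 3, 6 and 7 and 112, 126, 111 and 140 FPKM in HFrD mice 1, 2, 5 and 7. The groups were intermingled, and the log2 fold change was -0.02 (standard error 0.13, 95% interval -0.31 to 0.26, adjusted p = 0.930 from limma). Lpin3 stayed low, with 0.99 to 2.06 FPKM in HFrD mice and 0.75 to 1.71 in ND mice (log2 difference 0.16, 95% interval -0.25 to 0.56, adjusted p = 0.639 from limma). The make-up of the family shifted with Lpin1. Lpin1 accounted for 10.2, 23.3, 28.0 and 19.3% of the summed lipin FPKM in HFrD mice 1, 2, 5 and 7 and for 7.26, 7.28, 6.94 and 11.9% in ND mice 1, 3, 6 and 7, with an overlap only between HFrD mouse 1 and ND mouse 7. Lpin2 took 71.1 to 89.0% and 86.9 to 92.5%, respectively. The summed lipin FPKM was 156 ± 22.0 in HFrD and 138 ± 23.8 in ND livers (SD, n = 4 each). Among the genes that followed Lpin1 most closely over the 8 mice were Acss2 (root mean square difference 0.27) and Got1 (0.28), the cytosolic aspartate aminotransferase. The SD of Lpin1 was 0.93 on this scale. For Agpat2, whose SD was 0.35, the closest genes were D1Ertd622e (0.088), the creatine transporter gene Slc6a8 (0.095) and Txnl1 (0.098), which encodes a thioredoxin-like protein of the proteasome.

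**Figure D2:**
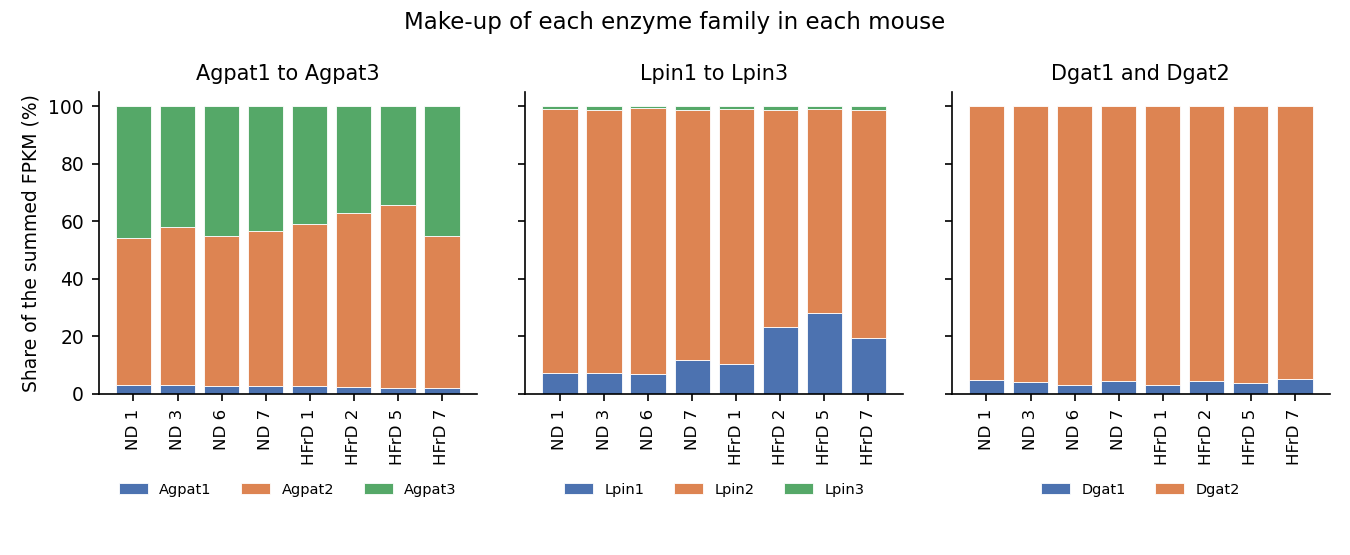
Share of each gene in the summed FPKM of its enzyme family (%), as 1 stacked bar per mouse. The share of Lpin1 among the lipins is 19.3 to 28.0% in HFrD mice 2, 5 and 7 and 6.94 to 11.9% in ND mice, with HFrD mouse 1 at 10.2%, whereas Dgat2 makes up 94.7 to 97.0% of the last family in every mouse.

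The diacylglycerol acyltransferases of the last step did not pass the test. Dgat2 had 111, 113, 133 and 133 FPKM in ND mice 1, 3, 6 and 7 and 133, 173, 187 and 139 FPKM in HFrD mice 1, 2, 5 and 7. HFrD mice 2, 5 and 7 lay above all ND mice, and HFrD mouse 1 lay within them. The log2 fold change was 0.35 (standard error 0.12, 95% interval 0.08 to 0.63, adjusted p = 0.106 from limma; exact permutation p = 0.0857). Dgat1 was far lower, with 5.74, 4.74, 4.13 and 6.12 FPKM in ND mice 1, 3, 6 and 7 and 4.19, 8.10, 7.53 and 7.73 FPKM in HFrD mice 1, 2, 5 and 7. HFrD mouse 1 again lay among the ND mice while the other HFrD mice lay above them (log2 fold change 0.33, 95% interval -0.09 to 0.75, adjusted p = 0.311 from limma; exact permutation p = 0.200). Both crossed the threshold without HFrD mouse 1, with an adjusted p in limma of 0.0499 for Dgat2 and 0.0407 for Dgat1. Dgat2 exceeded Dgat1 by 18.0 to 31.6 times in HFrD and by 19.4 to 32.1 times in ND livers, so the ranges of this ratio were nearly the same. Their summed level was 165 ± 27.2 FPKM on the HFrD against 128 ± 11.9 FPKM on the ND (SD, n = 4 each).

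Mogat1 had the lowest mean of the 10 genes in both groups. Its level was 0.92, 0.23, 1.19 and 0.19 FPKM in ND mice 1, 3, 6 and 7 and 1.79, 0.36, 0.74 and 0.95 FPKM in HFrD mice 1, 2, 5 and 7. The order of the mice differed from that of Gpam and Lpin1, with HFrD mouse 1 the highest. The log2 fold change was 0.27 (standard error 0.26, 95% interval -0.32 to 0.85, adjusted p = 0.566 from limma).

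**Figure D3:**
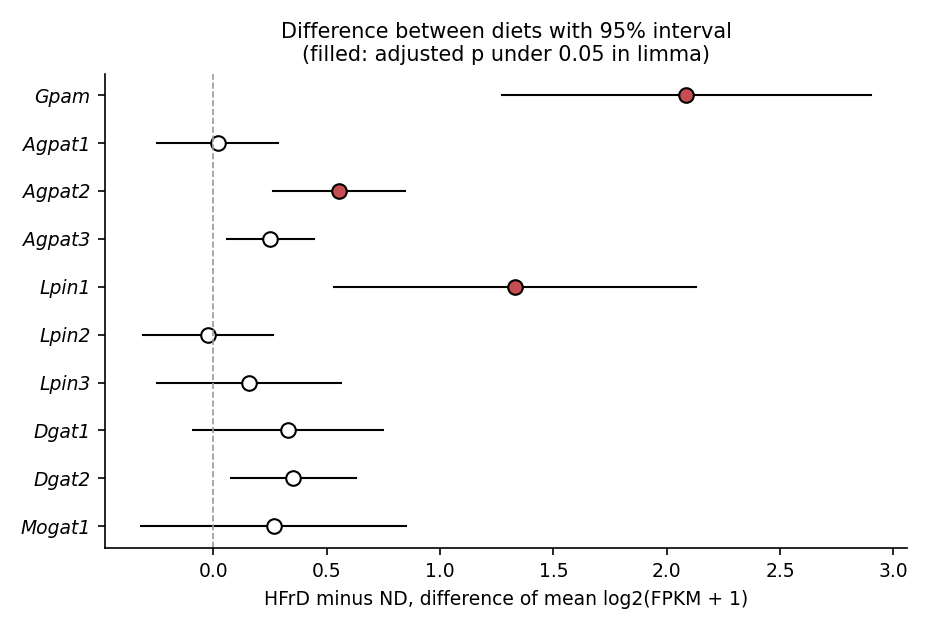
Difference between diets for each gene, as HFrD minus ND of mean log2(FPKM + 1), with the 95% interval of the limma fit, where filled points passed an adjusted p of 0.05. Gpam (2.09), Lpin1 (1.33) and Agpat2 (0.55) are filled, and the intervals of Lpin2 (-0.31 to 0.26) and Agpat1 (-0.25 to 0.29) span 0.

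HFrD mouse 1 had the lowest HFrD value of 6 of the 10 genes, namely Gpam, Agpat3, Lpin1, Lpin3, Dgat1 and Dgat2. The spread within HFrD livers, as a coefficient of variation of FPKM, was 51.7% for Gpam and 41.8% for Lpin1 but 17.8% for Agpat2, 11.4% for Lpin2 and 3.89% for Agpat3. In ND livers it was 29.5, 39.3, 10.1, 16.5 and 9.66% for the same genes. Without HFrD mouse 1 the count of genes called higher was 5 of the 10, beside 659 of all 11443 genes tested in that fit. Without ND mouse 1, ND mouse 3, HFrD mouse 2 or HFrD mouse 5 it was 1, which was Gpam each time, and without both HFrD mice 2 and 7 it was 0. The loci given by the authors' table for Lpin2 and Dgat2 span 622 and 795 kb and are shared with 7 other genes each. Those of Agpat2, Agpat1, Lpin3 and Mogat1 are shared with 3, 2, 2 and 1 others. The values of all these genes depend on how reads were divided within the loci.

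**Figure D4:**
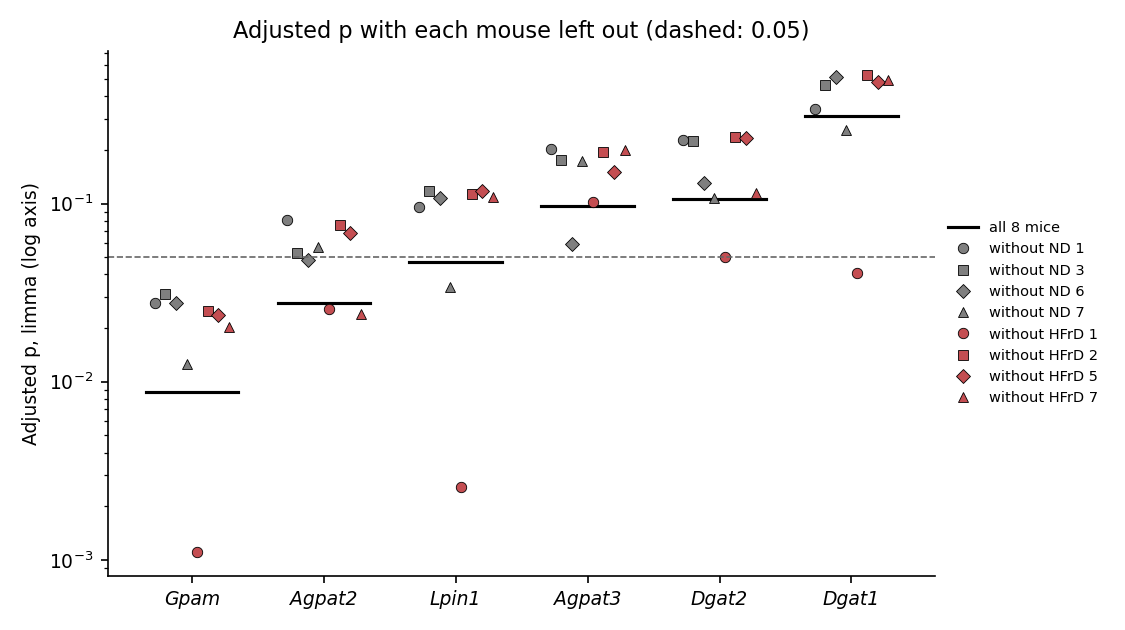
Adjusted p from limma (log axis) for 6 of the genes, with all 8 mice (bar) and with each mouse left out (points, ND in grey, HFrD in red), and 0.05 as a dashed line. Gpam stays below the line in all 8 fits (up to 0.0310), and the point without HFrD mouse 1 is the lowest for Gpam (0.00111), Lpin1 (0.00257), Dgat2 (0.0499) and Dgat1 (0.0407).

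Genes around the pathway were described by 8 lists with 100 genes in all, of which 89 were tested, and Mgll stands in 2 of the lists. The list around the supply of glycerol-3-phosphate from fructose and glycerol was in part higher. Of 9 tested, 4 were higher and 1 was lower, with a median log2 fold change of 0.35. Khk, the ketohexokinase that phosphorylates fructose, had 290 ± 82.6 FPKM on the HFrD against 105 ± 12.3 FPKM on the ND (SD, n = 4 each; limma log2 difference 1.42 at adjusted p = 0.00273). Tkfc, the triokinase that acts on the glyceraldehyde from fructose, rose by 1.44 on the log2 scale (adjusted p = 0.00327) in limma. Another higher gene, named after its value was seen, was Gpd2 (0.74, limma adjusted p = 0.0441, and 0.109 without HFrD mouse 2). It encodes the mitochondrial glycerol-3-phosphate dehydrogenase, which uses glycerol-3-phosphate rather than supplying it. Gk, Gpd1 and Gpd1l, whose enzymes make glycerol-3-phosphate, were not called and were also named after their values were seen. They differed by -0.10, 0.05 and -0.24 on the log2 scale (limma adjusted p = 0.753, 0.806 and 0.246). Aqp9, the glycerol channel of hepatocytes, was lower at 113 ± 18.2 against 158 ± 14.2 FPKM (SD, n = 4 each; limma log2 difference -0.49 at adjusted p = 0.0329), a call that held in 2 of the 8 fits without 1 mouse (up to 0.0922, without ND mouse 1).

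The other acyltransferases and phosphatases of these steps gave no call. Of 8 other acyltransferases tested, 0 were higher and 0 lower in limma, with 2 at an unadjusted p under 0.05 and a median log2 fold change of -0.01. Gpat4, the acyltransferase of the endoplasmic reticulum that catalyses the same step as Gpam, had 25.9 ± 5.64 FPKM on the HFrD against 35.8 ± 4.26 FPKM on the ND (SD, n = 4 each; limma log2 difference -0.47 at adjusted p = 0.0783). Of 6 lipid phosphate phosphatases tested, 0 were called in limma, with 2 at an unadjusted p under 0.05 and a median of 0.22, and the most abundant, Plpp3, differed by 0.11 on the log2 scale (adjusted p = 0.644). Among 7 genes that act on lipins, 1 was higher. This was Ppargc1a, a transcriptional coactivator that raises Lpin1 in mouse liver, with 3.91 ± 0.85 FPKM on the HFrD against 1.69 ± 0.68 FPKM on the ND (SD, n = 4 each; limma log2 difference 0.89 at adjusted p = 0.0312), and 3 of the 8 fits without 1 mouse kept its call (up to 0.0839 without HFrD mouse 7). The median of that list was -0.02.

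Of 15 tested genes on the branches from phosphatidate and diacylglycerol towards phospholipids and signalling, 0 were higher (3 at an unadjusted p under 0.05) and 1 was lower in limma, with a median log2 fold change of -0.05. The lower gene was Abhd6, a monoacylglycerol lipase, with 8.57 ± 1.93 FPKM on the HFrD against 14.2 ± 2.44 FPKM on the ND (SD, n = 4 each; limma log2 difference -0.67 at adjusted p = 0.0345), which was 0.0948 without ND mouse 1. Genes of triglyceride hydrolysis moved both ways, with 3 of 12 higher, 3 lower and a median of 0.08. Pnpla3, a lipid droplet protein, had 1.09 to 37.8 FPKM in HFrD mice and 0.030 to 0.18 in ND mice (log2 difference 3.16, adjusted p = 0.0218 from limma, and 0.0605 without HFrD mouse 2). The carboxylesterase genes Ces1d, Ces1f and Ces1g had log2 fold changes of -1.36, -0.98 and -1.25, with adjusted p of 0.00442, 0.00666 and 0.00386 in limma. They are closely related copies, so the division of reads among them is uncertain. The other higher genes, named after their values were seen, were Lipa, the lysosomal acid lipase (0.34 on the log2 scale, limma adjusted p = 0.0301, and 0.0870 without ND mouse 3), and Hilpda, which encodes an inhibitor of the main triglyceride lipase (0.60, limma adjusted p = 0.0403, and 0.0982 without HFrD mouse 5).

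The largest group of calls was among the genes that make and desaturate the acyl chains used by these enzymes, with 13 of 16 higher, 1 lower and a median log2 fold change of 1.96. Scd1, the stearoyl-CoA desaturase, stood at 7722 ± 3514 against 498 ± 65.2 FPKM (SD, n = 4 each; limma log2 difference 3.80 at adjusted p = 7.44e-04). Acacb, Elovl5 and Fads2, which encode a carboxylase, an elongase and a desaturase, rose by 2.85, 2.59 and 1.13 on the log2 scale, with adjusted p of 0.00143, 0.00145 and 0.00238 in limma. The lower gene was Acsl1, an acyl-CoA synthetase, at a log2 difference of -0.91 (limma adjusted p = 0.0166, and 0.0502 without ND mouse 3). It was named after its value was seen. Several genes of this list are among those the study picked on these libraries, and that choice gives no independent evidence of their direction. Apart from sequencing, the study reported higher ACC1 (encoded by Acaca) and FASN on the HFrD by qRT-PCR and western blot. It also measured Scd1 by qRT-PCR. Whether the same mice were used is not stated. Of 17 transcription regulators of lipogenesis, 3 were higher and 0 lower in limma (1 at an unadjusted p under 0.05), with a median of 0.005. Insig2 and Scap, which hold and escort the sterol regulatory proteins in the endoplasmic reticulum, rose by 1.14 (adjusted p = 0.0192, and 0.0588 without ND mouse 3) and 0.60 (adjusted p = 0.0364, and 0.0954 without HFrD mouse 2) on the log2 scale in limma. Thrsp, a nuclear protein linked to lipogenesis, rose by 1.93 (adjusted p = 0.0300 from limma, and 0.0838 without ND mouse 1).

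**Figure D5:**
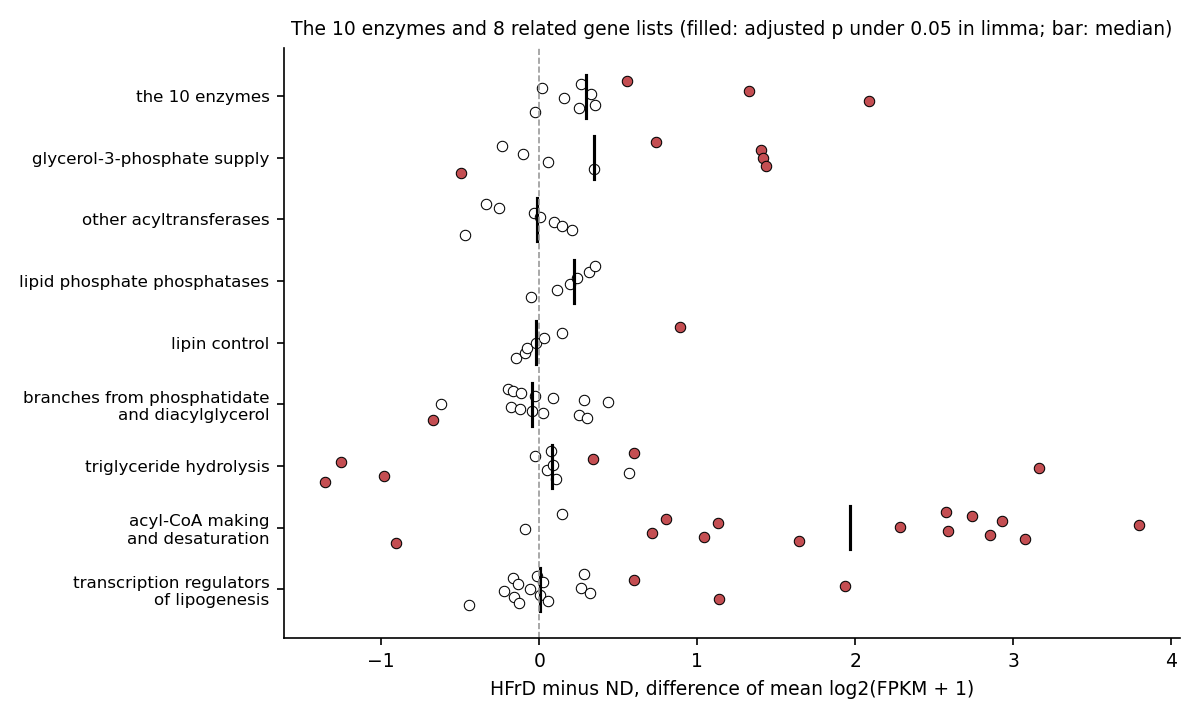
HFrD minus ND of mean log2(FPKM + 1) for the 10 enzymes and for each tested gene of the 8 lists, where filled points passed an adjusted p of 0.05 in limma and bars are medians. The median is 0.30 for the 10 enzymes and 1.96 for the genes of acyl-CoA making and desaturation, in which 13 of 16 were higher.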

How the data were processed

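Liver RNA of 8 mice was measured by RNA-Seq, with 4 mice per diet and 1 library per mouse. The authors trimmed reads with Cutadapt 1.9.3, aligned them to mm10 with HISAT2 2.0.4 and deposited FPKM for 22564 protein-coding genes. Cufflinks and Cuffdiff appear in the submitters' processing notes, but their versions, annotation and strand setting are not given in the sources used here. The labels name a TruSeq stranded kit and the paper a NEBNext directional kit. The table holds no read counts, so absolute depth is unknown and no counting error is given. 0 columns of sample values were left without a sample.

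Log2(FPKM + 1) of the 11476 genes whose mean reached 0.5 FPKM was tested with limma 3.58.1 in R 4.3.3 (eBayes with trend, two-sided, Benjamini-Hochberg, 4 HFrD against 4 ND). Single genes were also tested by two-sided exact permutation over 70 relabellings. Tables were handled in pandas 2.3.3 and numpy 2.4.6 under Python 3.11.15, and plots drawn in matplotlib 3.10.9. Depth relative to ND mouse 1 was taken from the commonest ratio of low FPKM values. Positions of genes come from GENCODE M21 (GRCm38, called mm10). Of 161 entries in the pathway and marker lists, 159 matched, 15 of them by another name. Members and lists were chosen with earlier results of these data known. The genes named are the 10 members, of each pathway list the called genes with the smallest adjusted p (at most 4) or else the most abundant gene, and for each called member the 3 genes with the smallest root mean square difference. The fit was tested on simulated data. Protein sequences were not used here. Some genes that this rule names are not reported here.

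The alternatives tried were quantile normalization, libraries set to equal medians, rescaling without Mup and mitochondrial genes, array weights, no variance trend, a smaller pseudocount (0.1), filtering at 1 FPKM or not at all, the mouse number as a block, each mouse left out, and HFrD mouse 1 and ND mouse 7 left out together because an earlier analysis had found them nearest to the other diet. Leaving out HFrD mice 2 and 7 together was chosen after seeing the data.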

Additional observations from a re-analysis of the deposited data

Results flagged for a closer look

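Dgat1 in HFrD mouse 1, at 4.19 FPKM, lay apart from HFrD mice 2, 5 and 7 (8.10, 7.53 and 7.73 FPKM) and within the range of the ND mice. The gap to the nearest HFrD mouse was 0.853 of the whole range of the 4 values. In all, 20 groups of 4 values were examined in this way, and chance alone gives about 1 in 20.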

How the results depend on the processing

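Of the 10 genes, 3 were called higher in the reported fit, and 2 to 4 under the other settings except those named here. The count of 4 came from the fit without HFrD mouse 1 and ND mouse 7, a choice that favours a wider difference. With no filter it was 0, in a fit of 22564 genes of which 6739 were listed at 0 in every library (adjusted p 0.0784 for Gpam, 0.117 for Agpat2 and 0.213 for Lpin1). The calls of the related lists, 24 higher and 6 lower, then fell to 9 and 1. Without HFrD mice 2 and 7, a setting chosen after seeing the data that leaves 2 HFrD mice, 0 of the 10 genes and 8 and 1 list genes were called (103 and 62 over all genes), Lpin2 was -0.15, Mogat1 0.48, and Lpin3 turned to -0.068. With each mouse left out in turn the counts were 1 to 5 for the 10 genes, 14 to 27 for list genes higher and 3 to 8 for list genes lower. 0 of the 10 genes were called lower under any setting. Over all genes, 624 were called higher and 423 lower, against 220 and 146 with no filter, 552 and 614 at equal medians, 568 and 542 after quantile normalization, 513 and 582 after rescaling, 655 and 701 without HFrD mouse 1 and ND mouse 7, and 340 to 659 and 183 to 634 with each mouse left out.

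Mouse numbers 1 and 7 occur on both diets. Their deviations from the diet means correlated at 0.077 and -0.014 over 11476 genes. Whether an equal number marks a pair is not given in the sources used here. These correlations have no reference from other pairs and cannot settle it. With the replicate block only these 4 mice set the difference, 0 of the 10 genes and 0 and 0 list genes were called, and 2 and 0 genes over the whole table. Log2 fold changes in the block fit were 1.09 for Gpam (adjusted p = 0.118), 0.46 for Agpat2 (0.225), 0.50 for Lpin1 (0.378), -0.088 for Lpin3 and -0.041 for Dgat1, by limma.

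Outside the block fit, signs turned for Agpat1, Lpin2, Lpin3 and Mogat1, none of which was called. Agpat1 was -0.036 after quantile normalization, -0.0053 at equal medians, -0.0076 after rescaling, -0.00075 with array weights and -0.052 to 0.082 with each mouse left out. Lpin2 was 0.0028 with array weights and -0.127 to 0.063 with each mouse left out. Without HFrD mouse 1 and ND mouse 7, Agpat1 was -0.085, Lpin2 0.047, Lpin3 0.36 and Mogat1 -0.055 (0.080 to 0.426 with each mouse left out), and Dgat1 was called at 0.59 (adjusted p = 0.0278 from limma). Those mice were left out as nearest to the other diet. They held the lowest HFrD (4.19 FPKM) and highest ND value (6.12 FPKM) of Dgat1, so a wider difference was built into this fit. The filter at 1 FPKM removed Mogat1. Causes were not tested.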
